A study of Mus musculus with 6 samples.

Results

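Of the genes that handle vitamin A, 8 were examined: the carrier Rbp2, the esterifying enzyme Lrat, the oxidoreductases Rdh7, Dhrs3 and Retsat, the retinaldehyde dehydrogenases Aldh1a1 and Aldh1a2, and the homeobox regulator Isx. They were taken by symbol from the 21950 genes listed in both deposited columns, and all 8 were found, each in 1 transcript entry. The list was drawn up with their values in view, so those values are a description and no test rests on them. The tissue was ileum of C57BL/6 mice aged 24 weeks, with 3 mice in each of the groups called wild type and TLR4ΔIEC. TLR4ΔIEC mice lack the lipopolysaccharide receptor Tlr4 in intestinal epithelial cells only, so every other cell of the ileum keeps the gene. Neither the promoter behind the deletion nor the breeding of the wild type mice is given in the sources used here. The RNA of each mouse was barcoded, and the 3 libraries of a genotype were sequenced together. The deposited value is a single average coverage (reads per base of a transcript) for each genotype. There is therefore no spread between mice, no test is possible, and genotype and sequencing pool cannot be told apart.

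Vitamin A enters the enterocyte as retinol from digested retinyl esters, or as β-carotene, which Bco1 cleaves to retinaldehyde. Inside the cell retinol is bound by Rbp2 and esterified by Lrat for export in chylomicrons, while a smaller share is oxidised first to retinaldehyde and then to retinoic acid, the ligand of the RAR nuclear receptors. In the mouse intestine retinoic acid induces Isx, which represses Bco1 and the carotenoid receptor Scarb1, and retinoic acid made by dendritic cells gives lymphocytes their gut homing receptors.

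Rbp2 and Bco1 are shown by their promoters because both windows hold the same nuclear receptor motif. Each window (RefSeq, GRCm38.p6, plus strand, 5′ to 3′) runs from 250 bases before the transcription start to 50 bases after it, chr9:98490287-98490586 for Rbp2 and chr8:117095615-117095914 for Bco1. The Rbp2 window lies within the GENCODE interval of the gene (98486115 to 98509781) and not at its start. Capitals mark matches to the motifs searched.
Rbp2: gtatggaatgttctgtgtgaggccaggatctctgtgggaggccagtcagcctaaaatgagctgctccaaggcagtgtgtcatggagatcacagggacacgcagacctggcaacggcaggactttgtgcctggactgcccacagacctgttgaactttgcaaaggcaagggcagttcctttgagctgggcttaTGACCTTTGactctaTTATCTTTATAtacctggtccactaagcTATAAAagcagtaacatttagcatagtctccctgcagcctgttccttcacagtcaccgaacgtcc
Bco1: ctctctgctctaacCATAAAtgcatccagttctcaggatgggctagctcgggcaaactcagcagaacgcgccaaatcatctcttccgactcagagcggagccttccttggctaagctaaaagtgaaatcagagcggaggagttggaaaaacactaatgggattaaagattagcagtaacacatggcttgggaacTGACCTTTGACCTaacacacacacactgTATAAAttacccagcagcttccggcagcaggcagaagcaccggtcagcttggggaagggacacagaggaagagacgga
The motifs, searched on both strands, were the nuclear receptor site AGGTCA, its direct repeat with a spacer of 1 base (AGGTCANAGGTCA), the core of that repeat (CAAAGGTCA, chosen after the windows were read), the repeat with a spacer of 5 bases (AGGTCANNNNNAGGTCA), TTTATG of the CDX factors, AGATAA of the GATA factors and the TATA box TATAAA. The core motif starts 58 bases before the transcription start in Rbp2 and 56 bases before it in Bco1, on the minus strand of both, and in Bco1 it lies within a full repeat. Among 32851 promoter windows of the same length, the core was present in 0.478% and the full repeat in 0.0396%. The single site, which is contained in the core and in both repeats, was present in 16.3%, TTTATG in 11.9%, AGATAA in 11.2%, TATAAA in 13.6% and the repeat with the longer spacer in 0.00913%. In Rbp2 a GATA match and a TATA box match overlap by 1 base. Of the 8 genes, which have 12 windows, 1 holds the core (Rbp2), 2 hold a single AGGTCA, 2 a GATA match, 2 a TATA box and 1 a CDX match, and 0 hold either full repeat. A match is a run of letters and shows no binding.

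The RNA of Rbp2 and of Rdh7 was 2-fold or more lower in the TLR4ΔIEC column, that of Aldh1a1 and Retsat was lower by less, and Isx, Lrat, Dhrs3 and Aldh1a2 had log2 ratios between -0.32 and -0.07. Levels are given in units, that is, coverage after both columns were put on a common scale with a mean total of 1000000. Log2 ratios are of units plus a pseudocount of 1, TLR4ΔIEC over wild type, which makes the ratios of weak genes smaller. Of the 8 genes, 6 had a mean of at least 5 units and were counted. Lrat and Aldh1a2 lay below that level in both columns. Of the 6 genes, 2 were lower by 2-fold or more and 0 were higher by as much, while of all 8891 genes at that level 2.79% were lower and 1.29% higher by 2-fold or more. All 6 log2 ratios lay below 0, as did 47.4% of all genes. Their median was -0.69, against 0.03 for all genes. Since these genes were picked for their values, the counts describe them and show nothing further.

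**Figure D1:**
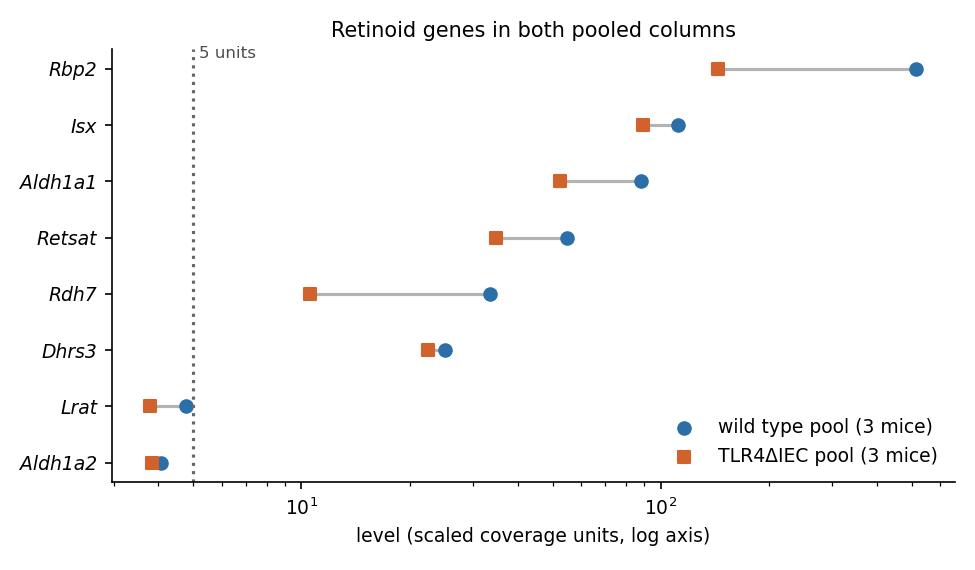
Level of each of the 8 genes in the wild type pool (circles) and the TLR4ΔIEC pool (squares), in scaled coverage units on a log axis. Rbp2 has the highest level in both pools (514 and 144 units), and Lrat and Aldh1a2 lie left of the dotted line at 5 units.

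Rbp2, the cellular retinol binding protein of enterocytes, averaged 351 reads per base in wild type against 103 in TLR4ΔIEC. On the common scale these were 514 and 144 units, a log2 ratio of -1.82 and 3.54-fold lower. The values rest on 235767 and 69452 bases of reads over a transcript of 672 bases. Rbp2 (chromosome 9, 98486115 to 98509781, plus strand, mm10, GENCODE vM21) went from rank 249 to rank 643 in level among all 21950 genes. Its log2 ratio was the 31st lowest of the 8891. No 50-base window of its longest GENCODE coding transcript, of 803 bases, occurs in a transcript of another gene. Windows of the genes below are also of that longest transcript, whose length can differ from the length behind the coverage. The related carrier Rbp7 was nearly equal, at 17.6 units in wild type against 17.8 in TLR4ΔIEC. Rbp2 made up 96.7% of the summed level of the pair in wild type and 89.0% in TLR4ΔIEC. The coding sequence of Rbp2 is 64.2% identical to that of Rbp7, with no identical run longer than 10 bases.

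Rdh7, a short-chain dehydrogenase that oxidises retinols and steroids, averaged 22.8 reads per base in wild type against 7.57 in TLR4ΔIEC. These were 33.5 and 10.6 units, a log2 ratio of -1.57 and 2.97-fold lower. The values rest on 45531 and 15104 bases of reads over 1994 bases. Rdh7 (chromosome 10, 127884028 to 127888817, minus strand) lies in a cluster of related genes. The 4 relatives examined were lower too, but only Rdh9 averaged 5 units or more. Rdh9 was at 26.8 and 12.8 units (log2 ratio -1.01), Rdh16 at 4.46 and 1.35 units (-1.22), Rdh1 at 2.01 and 0.924 units (-0.65) and Rdh19 at 0.738 and 0.311 units (-0.41). The 5 genes summed to 67.5 units in wild type against 26.0 in TLR4ΔIEC. Rdh7 made up 49.6% of that sum in wild type and 40.8% in TLR4ΔIEC, where Rdh9 had the larger share (49.3%). Reads may have been shared among these genes. The coding sequence of Rdh7 is 86.3% to 87.9% identical to those of the other 4, with an identical run of 133 bases shared with Rdh1 and Rdh19. Of the 50-base windows of the longest Rdh7 transcript (1678 bases), 13.2% occur in another gene. At a window of 100 bases this share was 4.12%. How reads matching several genes were treated is not given in the sources used here.

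**Figure D2:**
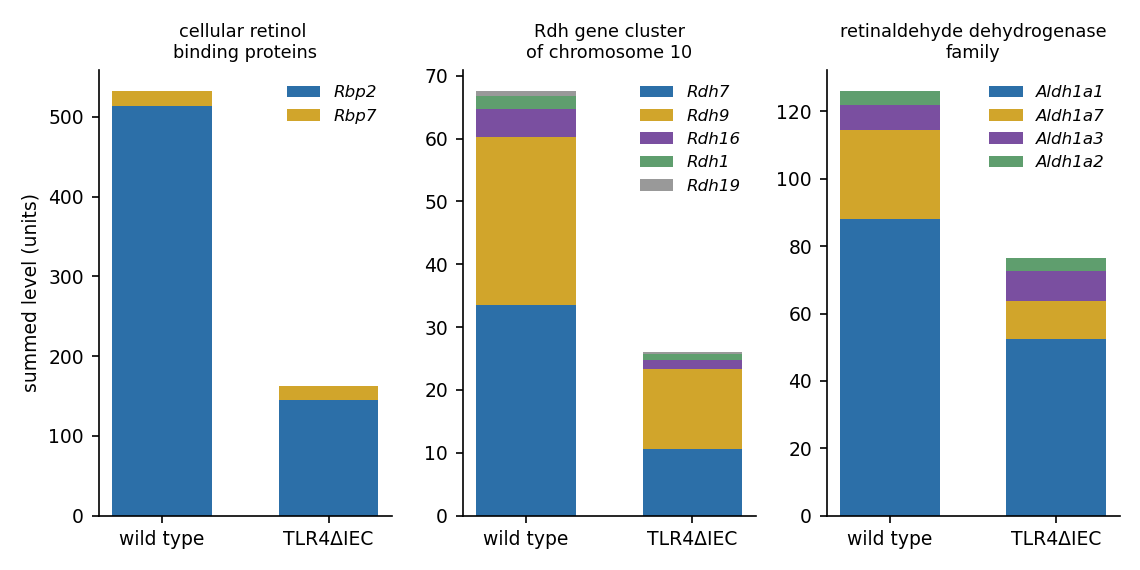
Summed level, in units, of the cellular retinol binding proteins Rbp2 and Rbp7, the Rdh genes of chromosome 10 and the retinaldehyde dehydrogenase family in the wild type and TLR4ΔIEC pools, with each gene as a segment of the bar. The sums go from 532 to 162 units, from 67.5 to 26.0 units and from 126 to 76.4 units.

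Aldh1a1, which oxidises retinaldehyde to retinoic acid, averaged 60.0 reads per base in wild type against 37.5 in TLR4ΔIEC. These were 88.0 and 52.4 units, a log2 ratio of -0.74. Its close relative Aldh1a7, next to it on chromosome 19, was at 26.5 and 11.4 units, a log2 ratio of -1.15. The coding sequences of the pair are 91.9% identical with an identical run of 100 bases, and 6.54% of the 50-base windows of Aldh1a1 occur in Aldh1a7, so reads may have been exchanged between them. Aldh1a3, like Aldh1a1 a retinaldehyde dehydrogenase, was at 7.38 and 8.72 units (0.21). Aldh1a7 is counted in the family sum by sequence, at 21.0% in wild type, and its activity on retinaldehyde was not examined here. Aldh1a1 made up 69.9% of the summed level of Aldh1a1, Aldh1a2, Aldh1a3 and Aldh1a7 in wild type and 68.6% in TLR4ΔIEC, so its share changed little while the sum was 1.65-fold lower. Aldh1a1 (chromosome 19, 20492715 to 20643465, plus strand) is overlapped on the opposite strand by C730002L08Rik, whose coverage was 0.0366 and 0.145.

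Aldh1a2, the retinaldehyde dehydrogenase of gut dendritic cells, stroma and mesothelium, was weak and nearly equal in both columns. The gene lies on chromosome 9 (71215789 to 71296243, plus strand). Its coverage was 2.78 in wild type against 2.74 in TLR4ΔIEC, or 4.07 and 3.83 units, a log2 ratio of -0.07. The 2 averages do not run over the same length. The wild type value is 5845 bases of reads divided by 2106, which is the transcript of 2264 bases without 158 bases, the length of its exon 11 of 14. The TLR4ΔIEC value is a number of bases divided by 283 or a multiple of it, and 8 times 283 is the full 2264. If the missing 158 bases held no wild type reads, the wild type coverage over the full length is 2.58. The log2 ratio then becomes 0.01 (5845 and 6200 bases of reads). With the lengths left as they are, the ratio also turned above 0 under other scalings. It was 0.014 on the total less the 50 highest genes and 0.058 with scaling to the enterocyte markers. The sign of the Aldh1a2 difference thus depends on the length and on the scaling used. Markers of cells known to make Aldh1a2 summed to more in TLR4ΔIEC. Dendritic cell markers summed to 47.9 units in wild type against 71.4 in TLR4ΔIEC, with 6 of 9 above 0, most of the difference being Irf8 (29.2 and 50.7 units). Without Irf8 they summed to 18.7 and 20.7 units, and Flt3 (-0.35), Batf3 (-0.26) and Cd209a (-0.50) were below 0. Mesothelial markers summed to 4.05 and 9.13 units, with 5 of 5 above 0 and none at 5 units. The defining dendritic cell genes Xcr1 (0.897 and 0.909 units) and Clec9a (0.993 and 1.39 units) were weak. The part of these cells in the Aldh1a2 value was not tested.

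Retsat, retinol saturase, which makes dihydroretinol from retinol, averaged 37.5 reads per base in wild type against 24.9 in TLR4ΔIEC. These were 55.0 and 34.8 units, a log2 ratio of -0.65. The values rest on 72619 and 48196 bases of reads over 1937 bases. Retsat (chromosome 6, 72598475 to 72608425, plus strand) is overlapped on the opposite strand by the unclassified model Gm45053, not used here. Of the 50-base windows of the longest coding transcript of Retsat (3027 bases), 7.52% occur there. Retsat is also abundant in adipose tissue, as is Aldh1a1. All 9 adipocyte markers were lower in the TLR4ΔIEC column, but only 5 had a mean of at least 5 units. Of all genes at that level, 47.4% had a ratio below 0. Levels of the 9 markers summed to 237 units in wild type against 116 in TLR4ΔIEC. Most of this was Fabp4 (165 and 91.2 units), which endothelial cells and macrophages also make. Adipoq, an adipocyte hormone, was at 9.63 and 3.42 units. Rbp4, the serum retinol carrier that fat also makes, was in the opposite direction at 2.02 and 3.46 units. The part of fat in the values of Retsat and Aldh1a1 was not tested.

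Lrat, the main enzyme that esterifies retinol, was weak in both columns. Its coverage was 3.25 in wild type against 2.71 in TLR4ΔIEC, or 4.76 and 3.79 units, a log2 ratio of -0.26, from 17365 and 14517 bases of reads over 5349 bases. Dgat1, an acyltransferase that can also esterify retinol, was at 175 and 133 units (-0.39), which was 36.7 times the level of Lrat in wild type and 35.1 times in TLR4ΔIEC. The level of Rbp2 was 108 times that of Lrat in wild type and 38.1 times in TLR4ΔIEC. The antisense gene Rbm46os spans Lrat (chromosome 3, 82892579 to 82903973, minus strand), but its coverage was 0.0544 in both columns.

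Dhrs3, which reduces retinaldehyde back to retinol and is induced by retinoic acid, was nearly equal, at 17.1 reads per base in wild type against 16.1 in TLR4ΔIEC. These were 25.1 and 22.4 units, a log2 ratio of -0.16. The gene lies on chromosome 4 (144892827 to 144928209, plus strand), and its values rest on 16454 and 15426 bases of reads over 961 bases or a multiple of that length. Rdh7 was at 1.33 times the level of Dhrs3 in wild type and at 0.472 times in TLR4ΔIEC, and this was the only change in the order of the 6 counted genes between the columns. The transmembrane retinol dehydrogenase Rdh10, its partner enzyme in retinoic acid synthesis, was likewise nearly equal (7.35 and 7.50 units).

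Isx, the intestine-specific homeobox factor, averaged 76.2 reads per base in wild type against 64.0 in TLR4ΔIEC. These were 112 and 89.4 units, a log2 ratio of -0.32, from 136551 and 114633 bases of reads over 1792 bases. Isx (chromosome 8, 74873173 to 74893506, plus strand) followed Rbp2 as the most abundant of the 8 genes in both columns. The level of Rbp2 was 4.60 times that of Isx in wild type and 1.62 times in TLR4ΔIEC. The genes that Isx represses, named after their values were seen, were weak: Bco1, listed under its older symbol Bcmo1, was at 4.77 and 2.54 units (-0.70) and Scarb1 at 1.96 and 2.29 units (0.15). The 2 averages of Bco1 also rest on different lengths, so its ratio is uncertain. Bco2, which cleaves carotenoids in mitochondria and was also named after its value was seen, was at 16.8 and 10.7 units (-0.61).

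**Figure D3:**
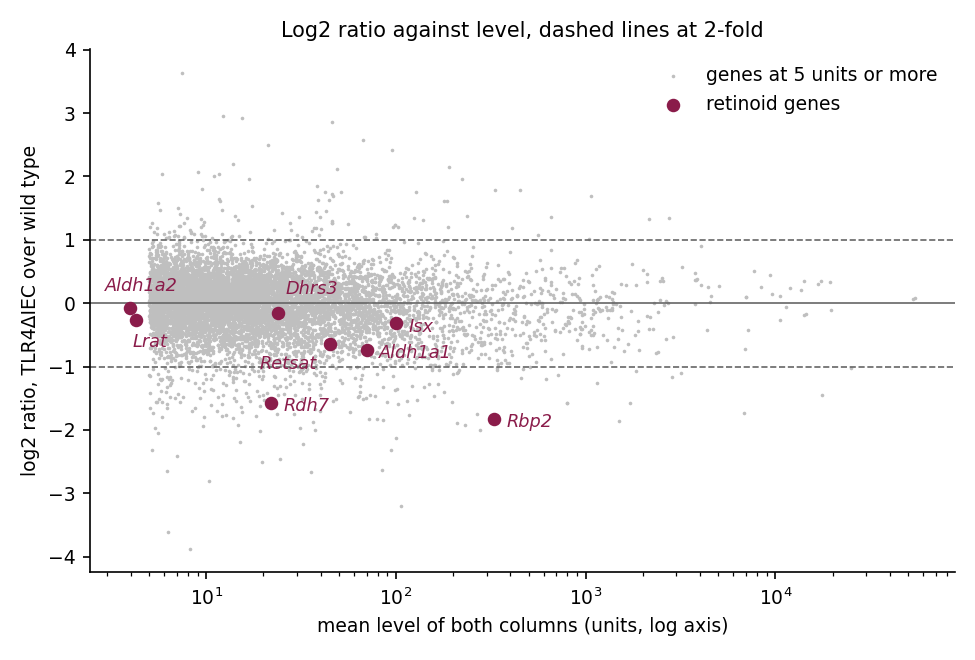
Log2 ratio of TLR4ΔIEC over wild type against mean level, in units on a log axis, for the 8891 genes at 5 units or more (grey) and the 8 retinoid genes (red), with dashed lines at 2-fold. Rbp2 (-1.82) and Rdh7 (-1.57) lie below the lower dashed line, and the other 6 genes lie between it and 0.

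The other genes of the pathway, 75 on 7 lists covering transport to response, gave 37 at 5 units or more. Of these, 23 were below 0 and 14 above, 2 were lower by 2-fold or more (Rdh9 and Aldh1a7, both relatives of genes described above) and 0 were higher by as much, with a median log2 ratio of -0.24. Among all 8891 genes 47.4% were below 0, 2.79% were lower and 1.29% higher by 2-fold or more, which is also the background of the counts by list that follow. The averages of 6 of the 37 genes (Lipe, Mttp, Rai14, Rara, Rxra and Tgm2) rest on different lengths in the columns, as do those of Bco1, Scarb1, Ccr9, Rbp4, Rdh19, Cyp26a1 and Cyp26b1 among the weaker genes named, so their ratios are uncertain. Cyp26c1 was listed in the wild type column only, at a coverage of 0.143. The lists share no gene with the 8 but were chosen with earlier results known.

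Of the 4 counted genes of uptake and packaging, 2 were below 0, with a median of -0.20, which was -0.49 over genes with equal lengths, where Mttp drops out. The chylomicron protein Apob was at 266 and 189 units (-0.49), while its loading partner Mttp was at 125 and 165 units (0.39) and the lipase Pnliprp2, which can release retinol from its esters, at 101 and 107 units (0.08). Among genes of retinol esterification and ester hydrolysis, 7 of 8 were below 0 and 0 reached 2-fold, with a median of -0.30. The carboxylesterases Ces2e (226 and 183 units), Ces2c (107 and 86.4 units) and Ces2a (101 and 83.0 units) lay between -0.30 and -0.28. The lipase Pnpla2 was at 43.4 and 29.7 units (-0.53), and Ces1f was higher at 26.4 and 35.6 units (0.42).

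Of the 11 counted genes of the list of retinol and retinal oxidoreductases, 5 were below 0 and 6 above, with a median of 0.03. This median lay below 0 with quantile normalization (-0.0094), filters at 1 and 20 units (-0.18 in both) and no filter (-0.12). Without Rdh9, its only counted gene of the Rdh cluster, 4 of 10 were below 0, with a median of 0.07. The carbonyl reductase Dhrs4 was lower (39.6 and 25.9 units, -0.60), as were Akr1b7 (27.9 and 22.1 units, -0.32) and Rdh11 (22.9 and 20.1 units, -0.18). Adh1, which averaged under 20 units, was lower too (18.4 and 11.4 units, -0.64). Rdh14 was higher (18.6 and 24.1 units, 0.36), as was Dhrs7 (9.75 and 17.3 units, 0.77), the highest ratio of the counted genes on this list, and Adh5 was nearly equal (33.2 and 35.9 units, 0.11). Among the counted genes of this list only Rdh9 reached 2-fold.

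All 4 counted genes of the receptor list, of which only Rara encodes a RAR, were below 0 and 0 reached 2-fold. Their median was -0.27, and -0.45 over the receptors with equal lengths, Rxrb and Ppard. By gene, Rxra, the common partner receptor, was at 36.3 and 30.1 units (-0.26), Rxrb at 21.9 and 18.4 units (-0.24), Ppard, which can also bind retinoic acid, at 26.4 and 16.4 units (-0.65), and Rara had a log2 ratio of -0.29. Of the Cyp26 enzymes that break down retinoic acid, Cyp26b1 was at 0.930 and 0.806 units and Cyp26a1 at 0.0563 and 0.0918 units. Cyp2s1, a cytochrome P450 on the list of retinoic acid breakdown, was at 19.1 and 15.9 units (-0.24).

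Of the genes that respond to retinoic acid or carry lymphocytes to the gut, 3 of 6 were below 0, with a median of 0.11, which was 0.40 over genes with equal lengths. Cdx1, a homeobox factor of the intestine, was at 155 and 116 units (-0.41), transglutaminase Tgm2 at 46.6 and 45.4 units (-0.04), and Rarres2, which encodes chemerin, at 68.7 and 82.2 units (0.26). The homing genes of lymphocytes were higher: the integrin subunits Itgb7 (6.61 and 10.1 units, 0.54) and Itga4 (3.67 and 6.35 units, 0.65) and the chemokine receptor Ccr9 (2.91 and 5.97 units, 0.84, under 5 units in the mean), all named after their values were seen. Their partners in the tissue were not: the addressin Madcam1 was at 2.12 and 1.88 units (-0.12) and Ccl25, the ligand of Ccr9, at 520 and 293 units (-0.83). Most lymphocyte markers were higher with them. T cell and intraepithelial lymphocyte markers summed to 106 units in wild type against 276 in TLR4ΔIEC, most of the difference being Gzma (57.6 and 196 units). Of these 7 markers 6 were above 0, and Cd2 was below (5.07 and 4.59 units, -0.12). The part of lymphocyte number in the homing genes was not tested.

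**Figure D4:**
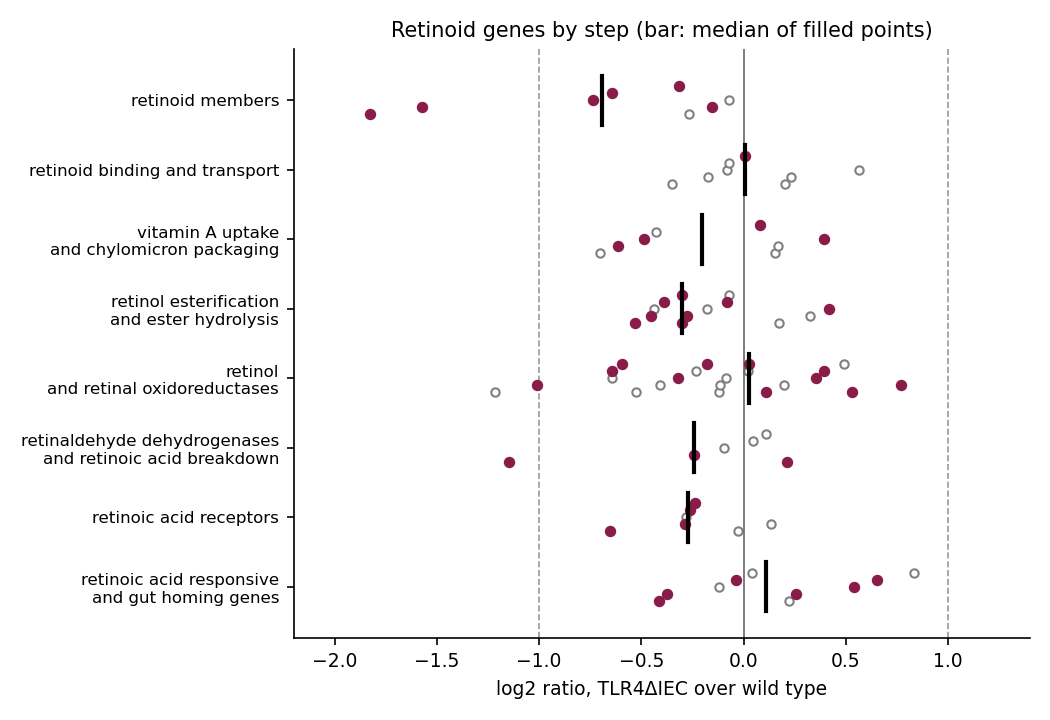
Log2 ratio of TLR4ΔIEC over wild type for each retinoid gene, grouped by list, with filled points at 5 units or more, open points below, and a black bar at the median of the filled points. The 8 genes described first have a median of -0.69, and the other lists have medians from -0.30 to 0.11.

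The labelled tissue was checked by marker lists. The ileal gene Fabp6 was at 15350 and 13628 units and Slc10a2 at 93.0 and 93.7 units, while the proximal genes Gata4 (0.449 and 0.429 units) and Lct (0.189 and 0.384 units) were near 0 in both. Other genes of the proximal list were not near 0, such as Fabp1 (192 and 20.03 units) and Ccl25. Tlr4 was at 2.90 and 2.24 units over the whole transcript, a weak check of the genotype in whole tissue. A lower level in a column can mean fewer cells of a type or less RNA in each cell, and these cannot be told apart. Enterocyte markers had a median of -0.16, with 8 of 10 below 0. They were not uniform: Vil1 (589 and 584 units) and Krt20 (729 and 735 units) were nearly equal, while Alpi (-1.36), Fabp2 (-1.17) and Mep1a (-0.86) were lower. Rbp2 was at 0.873 times the level of Vil1 in wild type and 0.247 times in TLR4ΔIEC. The proximal list had 4 counted genes with a median of -1.51, namely Fabp1 (-3.20), Cyp3a11 (-2.19), Ccl25 (-0.83) and Slc40a1 (0.51). Over all 8 genes of that list, 5 were below 0 and the median was -0.03. The distal ileal list had a median of -0.19, with Fgf15 (-0.63), Cubn (-0.62) and Slc51a (-0.56) lowest. Crypt markers were higher (median 0.69), with Mcm6 (1.05), Ccna2 (0.85) and Olfm4 (0.75) first. Mki67 was less so (45.5 and 50.2 units, 0.14), and Lgr5, under 5 units, was nearly equal (3.27 and 3.33 units, 0.02). All 6 immediate early and handling genes counted were lower, with a median of -1.26, among them Hspa1a (-1.96), Junb (-1.51) and Fos (-1.45). Whether cell make-up or handling had a part in the lower Rbp2, Rdh7, Aldh1a1 and Retsat was not tested.

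**Figure D5:**
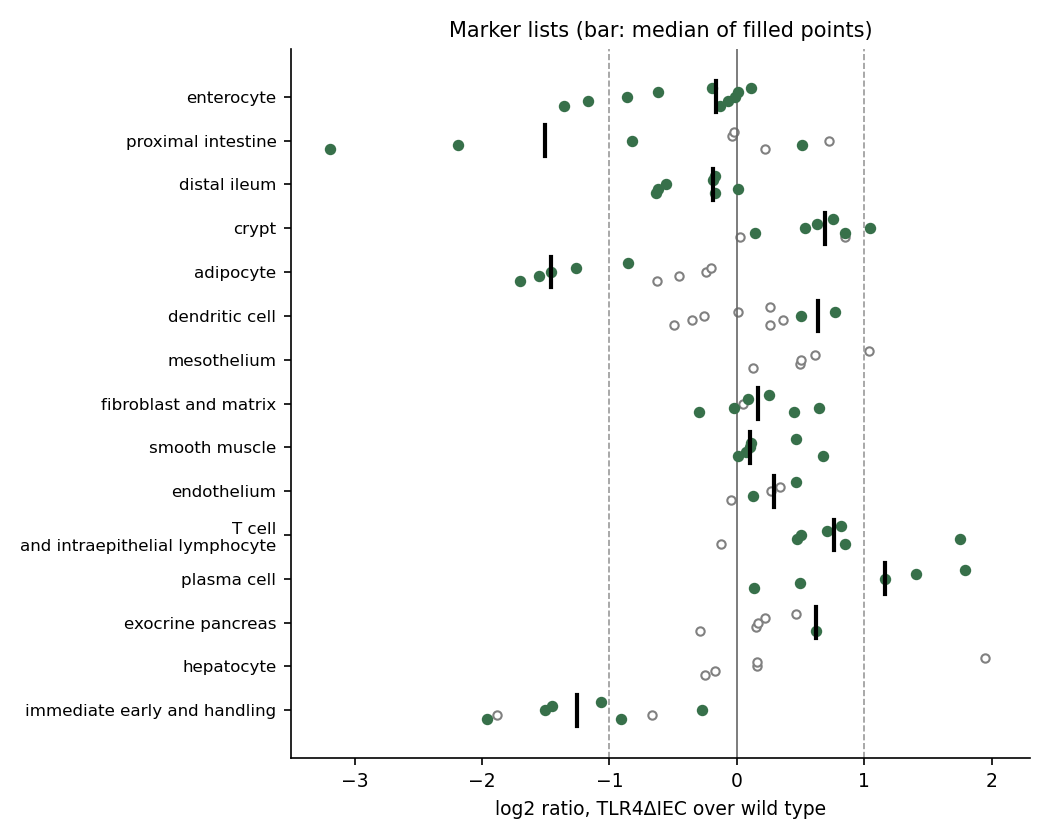
Log2 ratio of TLR4ΔIEC over wild type for each gene of 15 marker lists, with filled points at 5 units or more, open points below, and a black bar at the median of the filled points. Proximal intestine (-1.51, over 4 counted genes), adipocyte (-1.45) and immediate early (-1.26) medians lie to the left. Crypt (0.69), T cell (0.77) and plasma cell (1.16) medians lie to the right.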

How the data were processed

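Per the file headers, the deposited values are average coverage, a signal per RefSeq transcript entry. Of the values, 99.956% (wild type) and 99.9515% (TLR4ΔIEC) were whole numbers divided by a whole number, as unscaled averages over a length are; no header or label states the scaling. Per the labels, 1 column was made for the 3 mice of a genotype, from libraries of ileal RNA depleted of ribosomal RNA. The submitters' processing notes name TopHat2 2.0.10, Bowtie2 2.1.0 and mm10. The averaging tool was not given in the sources used here, nor were the read length and any use of strand, so counting intervals could not be made.

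The columns listed 22724 (wild type) and 22687 (TLR4ΔIEC) entries with summed coverage of 699800 and 698473. Entries in both were kept (22001, of which 51 repeated a symbol; the highest was used), scaled by the median of ratios (factor 1.05) and log2-transformed with a pseudocount of 1 unit. A mean of 5 units corresponds to a coverage of 3.41 and 3.58. Lengths were recovered as the whole-number ratios, with a divisor up to 20000, equal to the values within 1e-11 (relative above 1), and may be divisors of the true lengths. The symbols of Bco1 and Stra6l were matched through RefSeq synonyms.

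One gene of the pathway lists is not reported here. The 8 genes and all lists were chosen with earlier results of these data known. Named were these 8, pathway genes averaging 20 units or more, near relatives, retinoic acid breakdown enzymes, Tlr4 and up to 3 genes of a marker list. Other genes named (such as Rbp4, Rbp7, Rdh10, Rara, Bco1, Bco2, Scarb1, Vil1, Krt20, Fabp6, Slc10a2, Gata4, Lct, Slc40a1, Dhrs7, Adh1, Cyp2s1, Madcam1, Flt3, Batf3, Cd209a, Xcr1, Clec9a, Fabp4, Cd2, Mki67, Lgr5, Alb, Ttr, Serpina1c and the homing genes) were chosen after their values were seen. With 2 columns, no gene could be named for a like pattern. Scaling and ratios were tested on simulated data. Alternatives were 5 scalings, 2 pseudocounts, 3 filters, averaging over entries, and genes with equal lengths. Python 3.11.15, numpy 2.4.6 and pandas 2.3.3 were used.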

Additional observations from a re-analysis of the deposited data

How the results depend on the processing

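Under 12 alternative settings the counts past 2-fold, 2 genes lower and 0 higher, did not change. The filters among these settings could not test the counts, because they leave every ratio as it is. Averaging over entries and the equal-length setting hardly tested them either. Both keep the coverage of the 6 counted genes and shift only the scale (Rbp2 -1.826 and -1.823, against -1.825). Rbp2 and Rdh7 average 329 and 22.0 units and pass even the filter at 20 units. Lrat and Aldh1a2, which the looser filters add, have ratios short of 2-fold. Over the settings, Rbp2 lay between -1.83 and -1.66 and Rdh7 between -1.65 and -1.30. Aldh1a1 lay between -0.75 and -0.58, and Retsat between -0.66 and -0.49. The median over the counted genes of the 8 ranged from -0.70 to -0.48. Aldh1a2 turned to 0.014 on the total less the 50 highest genes, 0.058 with scaling to the enterocyte markers and 0.013 over its full length, and Dhrs3 came as near to 0 as -0.00052. Scaling to the enterocyte markers and the full length were added after the data were seen. The first moved the median of all genes from 0.03 to 0.18. The median of the oxidoreductases turned to -0.0094 with quantile normalization, -0.18 with a filter at 1 unit, -0.18 at 20 units and -0.12 with none. That of retinoid binding and transport, which rests on 1 counted gene, turned to -0.036 with a filter at 1 unit and -0.030 with none. With a filter at 20 units, which leaves fewer genes, uptake and packaging turned to 0.080, responsive and homing genes to -0.037 and all genes to -0.035, and with no filter the median of all genes was -4.4e-06. Over all genes, 248 were lower and 115 higher by 2-fold or more. A pseudocount of 5 gave 146 and 65. Filtering at 1 unit gave 380 and 206, at 20 units 130 and 58, and no filter 395 and 222. Scaling to the enterocyte markers gave 183 higher. The share that was higher, 31.7%, was 44.9% with scaling to the total less the 50 highest genes and 51.99% with the enterocyte scaling. No paired analysis was possible because each genotype has 1 pooled column. No mouse could be left out for the same reason. Filters changed only which genes were counted, and the other settings behind the shifts above changed the ratios themselves. Read counts are unknown, so what depth limits could not be measured.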

Other observations

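The core motif CAAAGGTCA of the Rbp2 and Bco1 promoters was present in a window of 35 genes at 5 units or more. Of these, 20 had a ratio below 0 (57.1%), 3 lay past 2-fold on the lower side (8.57%) and 1 on the higher (2.86%), with a median log2 ratio of -0.10. Without Rbp2, whose window led to the motif, 2 of 34 were past 2-fold on the lower side (5.88%). Of 6907 genes with a window, 47.8% had a ratio below 0, 2.40% lay past 2-fold on the lower side and 0.956% on the higher, and the median was 0.02. This was computed after the windows were read and describes the list only.

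The remaining marker lists gave the following values. Plasma cell markers summed to 413 units in wild type against 1007 in TLR4ΔIEC, led by Igj (1.79), Derl3 (1.41) and Mzb1 (1.16). Smooth muscle markers had a median of 0.11, led by Mylk (0.67), Acta2 (0.46) and Des (0.11). Fibroblast and matrix markers had a median of 0.17, with Dcn (0.65), Lum (0.45) and Col1a2 (-0.30) farthest from 0. Endothelial markers had a median of 0.29 over 2 counted genes, Pecam1 (0.46) and Lyve1 (0.13), and dendritic cell markers 0.64 over 2, Irf8 (0.77) and Itgax (0.50). Among adipocyte genes, Cfd (-1.70), Car3 (-1.55) and Cidec (-1.45) were lowest, and among T cell genes Cd3g (0.85) and Cd3e (0.82) followed Gzma (1.75). Markers of exocrine pancreas, with Cela1 (0.62) as the only counted gene, summed to 9.18 and 13.9 units, and those of hepatocytes to 7.28 and 11.9 units with 0 counted. The higher hepatocyte sum came from Alb (0.839 and 6.11 units). Of the 5 hepatocyte markers 3 were above 0, and Ttr (-0.17) and Serpina1c (-0.25) were below.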
